A study of Mus musculus with 22 samples.

Results

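The Hox genes encode homeodomain transcription factors and lie in 4 clusters, Hoxa on mouse chromosome 6, Hoxb on chromosome 11, Hoxc on chromosome 15 and Hoxd on chromosome 2. They were chosen by symbol alone, as every entry of the larger expression table whose symbol was Hox, a cluster letter and a number. This gave 39 of 23993 symbols, of which 11 were Hoxa, 10 Hoxb, 9 Hoxc and 9 Hoxd genes. All 39 were also listed in the smaller table of primary cancers and their cultures.

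The number in a Hox name gives its paralogue group, which follows the order of the genes along the cluster. In the embryo low numbers are switched on early and towards the head, high numbers later and towards the tail, so that the set of active Hox genes marks position along the body. Cells keep much of this pattern into adult life, fibroblasts from different body sites in particular, and Polycomb proteins hold silent clusters in a repressed state while Trithorax proteins keep active ones open. In the mouse mammary gland, genes of paralogue group 9 are needed together for growth in pregnancy and for nursing.

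The study set allografts and cultures of mouse mammary cells side by side, grown by conditional reprogramming (CRC in the labels) or in a mammary-optimised way (EpiC), in poly(A) RNA sequencing libraries. All cells were from C57Bl/6 nulliparous females that carried 1 mutant Trp53 allele and Cre driven by the mouse mammary tumour virus promoter (MMTV-Cre). They had 2 conditional Brca1 alleles (Brca1 fl11/fl11), a tetracycline-operated CYP19A1 (aromatase) transgene driven by MMTV-rtTA (CYP19A1), or 1 conditional Brca1 allele (Brca1 fl11/WT). The 7 CRC allografts were 1, 2 and 12 (Brca1 fl11/fl11), 6C (CYP19A1), and 10B, 10C and 11C (Brca1 fl11/WT), and the 3 EpiC allografts were 7B (CYP19A1), 4C and 5A (both Brca1 fl11/WT). They grew in mammary glands of nude (NCr, Foxn1nu) hosts, which lack most T cells but keep other host cells, and host and graft transcripts cannot be told apart in these values. The 3 CRC cultures and 3 EpiC cultures were numbered 1 (CYP19A1), 2 (Brca1 fl11/WT) and 3 (Brca1 fl11/fl11), with 1 library of each genotype and medium. The smaller table held 2 CRC cultures and 2 EpiC cultures of cancers and the 2 Brca1 fl11/WT primary cancers they were grown from, whose titles share a number. The labels do not say which libraries came from the same animal or dish, and the spread behind each p-value may therefore be technical. The titles of the 2 cancers also share an identifying number and differ in its letter, as the names of CRC allografts 10B and 10C do. Whether such libraries came from 1 animal or host is not stated, and the tests treated each library as separate.

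Levels are in FPKM (fragment counts divided by transcript length and by library size), so genes can be set beside each other, and read depth is not known. Brca1 itself covered 2.39 to 5.26 FPKM in the 5 Brca1 fl11/fl11 libraries, 2.41 to 3.95 FPKM in the 4 CYP19A1 libraries and 2.02 to 5.61 FPKM in the 7 Brca1 fl11/WT libraries; a value over the whole gene does not check the deletion of a conditional exon. The summed FPKM of 10 epithelial markers was 45.7 to 632 in CRC allografts, 217 to 907 in EpiC allografts, 9921 to 15970 in CRC cultures and 16 to 2514 in EpiC cultures, the lowest being EpiC culture 3. The summed FPKM of 10 fibroblast markers was 1728 to 5377 in CRC allografts, 761 to 3888 in EpiC allografts, 37.3 to 65 in CRC cultures and 4053 to 6455 in EpiC cultures. CRC cultures thus carried mostly epithelial markers, while every EpiC culture was high in collagens and other fibroblast genes. The 8 macrophage markers summed to 3627 to 12260 FPKM in CRC allografts, 3794 to 11810 FPKM in EpiC allografts and at most 55.3 FPKM in any culture of the larger table. In bulk RNA, fewer cells of a type and less RNA per cell cannot be told apart.

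Promoters are shown for genes from 3 clusters that behaved differently, 250 bases before to 50 bases after the start in the RefSeq table (build GRCm38.p6), written 5′ to 3′ along the gene. In CRC cultures Hoxb4 had 3.05 to 3.16 FPKM, whereas Hoxb8 of the same cluster had at most 0.123 FPKM, Hoxd8 at most 0.206 FPKM and Hoxa5 at most 0.557 FPKM. The Hoxb4 promoter lies at chr11:96318017-96318316 and the Hoxb8 promoter at chr11:96281655-96281954, both on the plus strand. The Hoxa5 promoter lies at chr6:52204538-52204837 on the minus strand and the Hoxd8 promoter at chr2:74704365-74704664 on the plus strand. Capitals mark matches to 3 motifs, searched on both strands. The first is TATAAA, a core element that helps to place the start. The second is CCAAT, bound by the NF-Y factor. The third is TGATNNAT, a motif of the kind that Hox and Pbx proteins bind together.
Hoxb4 promoter: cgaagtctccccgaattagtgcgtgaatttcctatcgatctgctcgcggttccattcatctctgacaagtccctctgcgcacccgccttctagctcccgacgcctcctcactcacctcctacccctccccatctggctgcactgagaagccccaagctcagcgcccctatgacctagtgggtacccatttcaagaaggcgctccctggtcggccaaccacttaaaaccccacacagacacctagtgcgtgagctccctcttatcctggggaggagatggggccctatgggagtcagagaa
Hoxb8 promoter: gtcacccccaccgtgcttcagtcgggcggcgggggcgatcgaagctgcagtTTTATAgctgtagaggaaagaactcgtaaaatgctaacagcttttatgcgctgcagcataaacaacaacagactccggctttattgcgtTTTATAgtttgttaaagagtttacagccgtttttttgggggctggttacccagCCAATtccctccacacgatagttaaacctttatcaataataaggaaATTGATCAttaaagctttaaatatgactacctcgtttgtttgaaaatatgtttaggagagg
Hoxa5 promoter: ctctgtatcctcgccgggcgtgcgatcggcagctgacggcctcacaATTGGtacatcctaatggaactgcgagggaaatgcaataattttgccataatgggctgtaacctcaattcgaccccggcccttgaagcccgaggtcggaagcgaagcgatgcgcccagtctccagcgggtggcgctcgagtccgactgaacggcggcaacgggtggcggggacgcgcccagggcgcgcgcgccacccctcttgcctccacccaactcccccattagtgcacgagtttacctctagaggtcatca
Hoxd8 promoter: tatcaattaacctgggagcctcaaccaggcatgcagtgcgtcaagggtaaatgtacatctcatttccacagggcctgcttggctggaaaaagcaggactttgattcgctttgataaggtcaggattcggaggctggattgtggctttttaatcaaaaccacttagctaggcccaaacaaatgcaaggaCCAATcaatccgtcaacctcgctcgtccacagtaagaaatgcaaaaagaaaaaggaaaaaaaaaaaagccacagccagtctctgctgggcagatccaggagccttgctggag

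The Hoxb8 promoter held 2 matches to the first motif, starting 199 and 110 bases upstream of the gene's start, a match to the second 57 bases upstream and a match to the third 11 bases upstream. Hoxa5 and Hoxd8 each held a match to the second motif, 204 and 62 bases upstream, and the Hoxb4 promoter held none of the 3 motifs. No matches overlapped in these promoters. Of 32851 promoters in the table, 13.6% held the first motif, 37.4% the second and 8.85% the third. The table held 24 promoters of 22 of the 39 Hox genes, of which 4, 15 and 4 held the first, the second and the third motif. The median GC content was 57.7% over the Hox promoters and 52.7% over all promoters. These matches describe letters and not bound sites.

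Across the 10 allografts and 6 cultures, 23 of the 39 Hox genes reached 1 FPKM in at least 1 library and 16 never did. Hoxc11, Hoxc12 and Hoxd13, all of the tail end of their clusters, were listed at 0 in all 16 libraries. A further 10 genes stayed under 0.5 FPKM, among them Hoxb13 (known from prostate), Hoxc13 (known from hair follicles) and Hoxa11 and Hoxa13 (known from the limb). Hoxa6, Hoxc10 and Hoxd10 peaked between 0.5 and 1 FPKM. Hoxb7, Hoxb8, Hoxb9, Hoxc4 and Hoxc6 exceeded 10 FPKM in at least 1 library, and the highest value of any Hox gene was 37.7 FPKM for Hoxb9 in EpiC culture 3. Those that reached 1 FPKM reached up to group 10 in Hoxa, and came from groups 2 to 9 in Hoxb and 4 to 9 in Hoxc, and of Hoxd only Hoxd8 and Hoxd9 did.

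**Figure D1:**
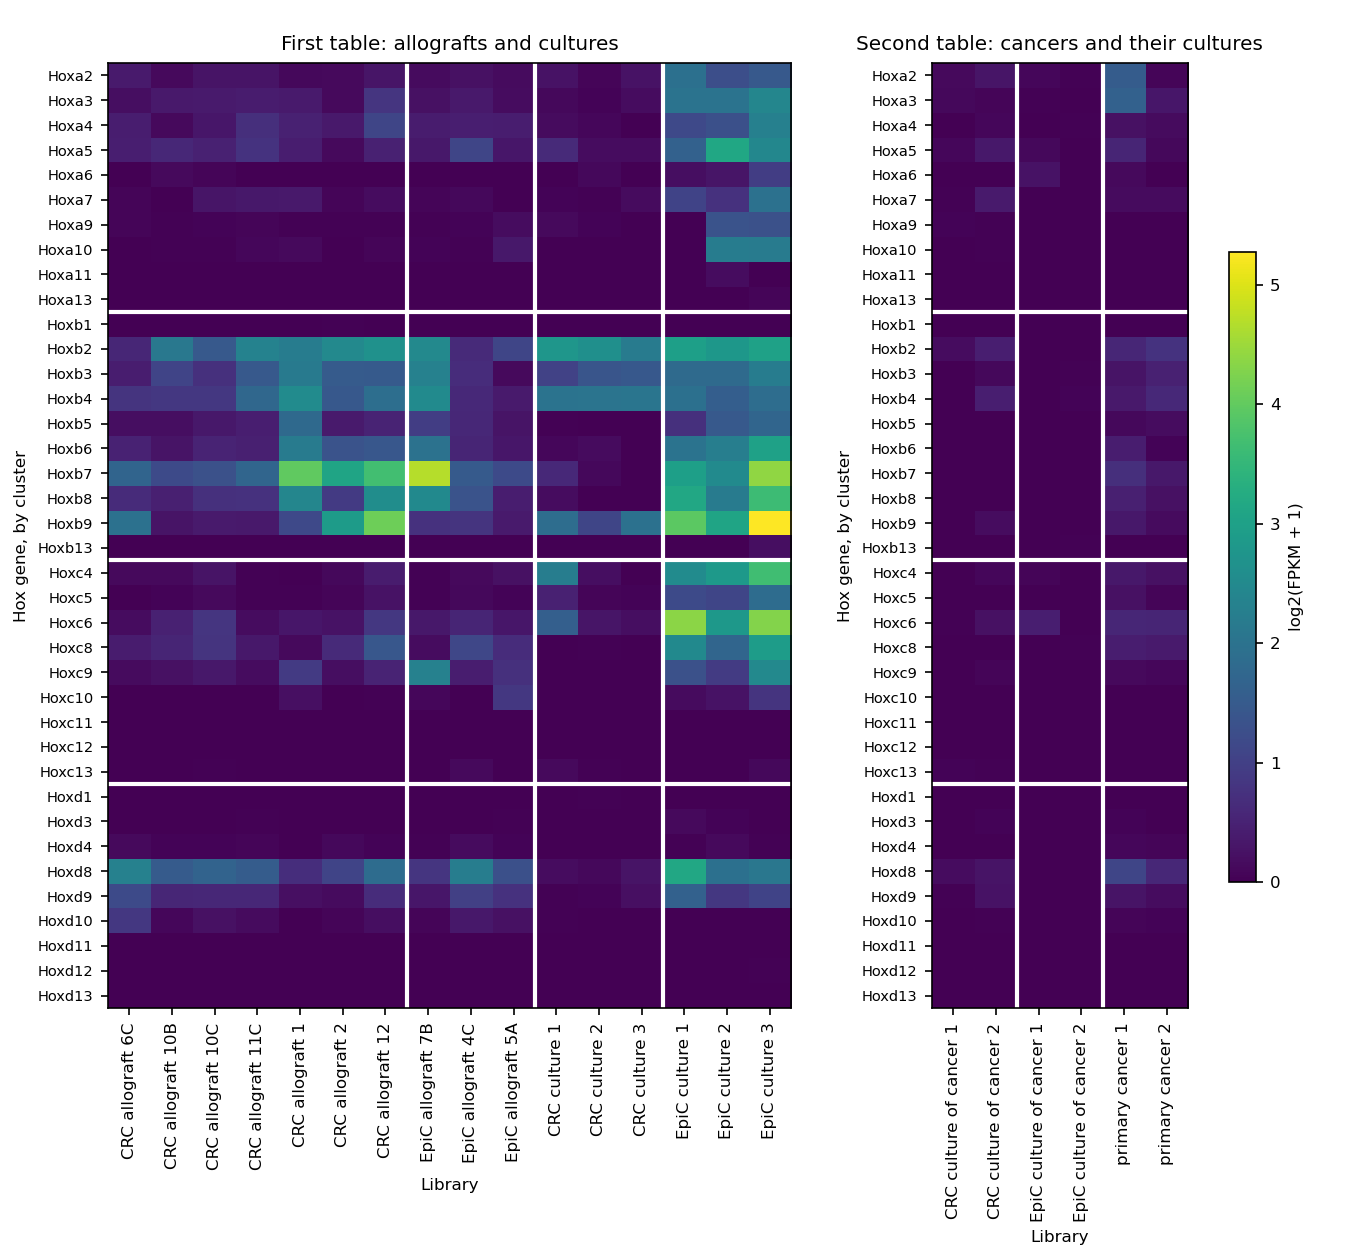
Level of 38 of the 39 Hox genes (rows, by cluster) in each library (columns, by group), as log2(FPKM + 1), with the tables in separate panels because they were normalised separately. The 3 EpiC cultures have the brightest columns, the allografts are bright mainly in Hoxb rows and Hoxd8, and the cultures of cancers are dark throughout.

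The number of Hox genes at or above 1 FPKM was 7, 5 and 5 in CRC cultures 1, 2 and 3, against 20, 19 and 23 in EpiC cultures 1, 2 and 3. CRC allografts had 4 to 11 such genes (median 6) and EpiC allografts 7B, 4C and 5A had 7, 5 and 3. The ranges of allografts and CRC cultures overlapped, and all 3 EpiC cultures lay above every other library. The summed FPKM of the 39 genes was 26.7, 14.2 and 14.1 in CRC cultures 1, 2 and 3, against 98.7, 73.2 and 166 in EpiC cultures 1, 2 and 3. Over the 10 allografts this sum covered 10.6 to 56.2 FPKM. In EpiC cultures 1, 2 and 3, 6, 6 and 8 of the genes at or above 1 FPKM were Hoxa, 7, 8 and 8 Hoxb, 5, 4 and 5 Hoxc, and 2, 1 and 2 Hoxd. In CRC cultures 1, 2 and 3, 4 of them each were Hoxb.

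**Figure D2:**
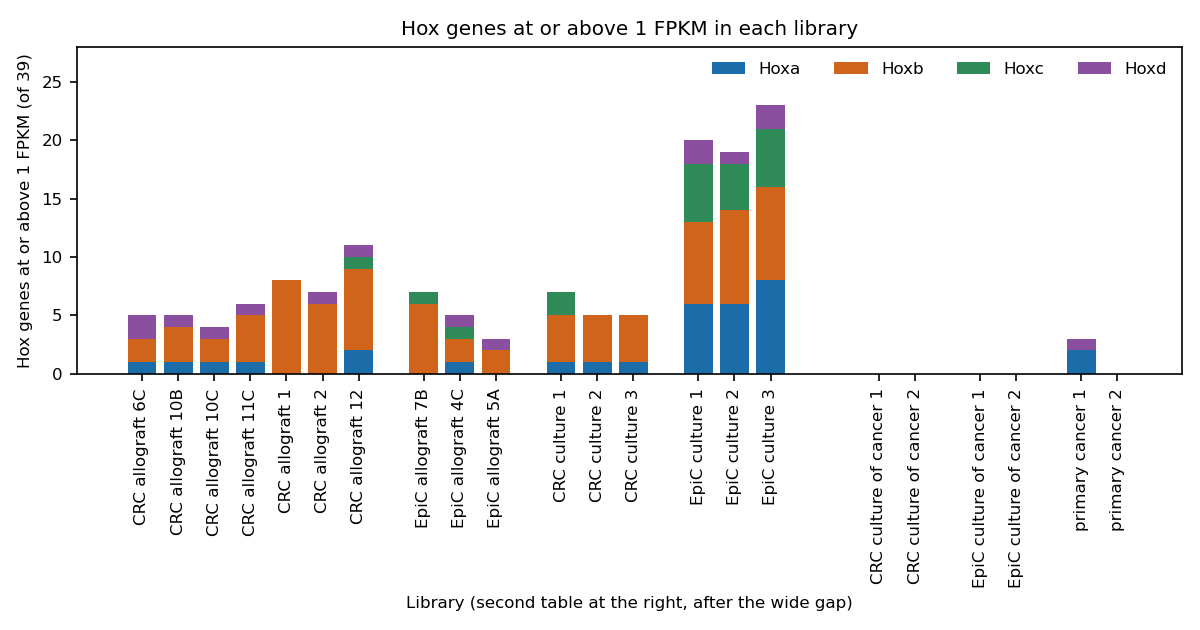
Number of the 39 Hox genes at or above 1 FPKM in each library, stacked by cluster. The 3 EpiC cultures reach 20, 19 and 23 genes, no other library of the larger table exceeds 11, and the 4 cultures of cancers have none.

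Medium in culture was the first question, and Hox genes from all 4 clusters were lower in CRC than in EpiC cultures. Of the 39 genes, 18 passed the filter of a mean of 1 FPKM over the 6 cultures, and 12 of these 18 did so through their level in the EpiC cultures alone, so these 12 could differ in that direction only. With genotype in the model, 11 genes fell and none rose (limma, adjusted p under 0.05), against 11.7% of 11837 genes tested that fell and 11.4% that rose. Because the filter took in genes through the EpiC cultures, the share of 11 in 18 is raised by that choice. With no filter 8 of 34 Hox genes fell and none rose, against 5.08% of 18280 genes that fell, and Hoxa4, Hoxa5 and Hoxb7 were not among the 8. The fallen genes in the filtered test were Hoxa2 to Hoxa5, Hoxb6 to Hoxb9, Hoxc6, Hoxc8 and Hoxd8. Over the 34 Hox genes above 0 in any culture the median difference was -1.13 on the log2(FPKM + 1) scale and the median over all genes was 0.00. All 3 CRC cultures lay below all 3 EpiC cultures in 15 of the 18 Hox genes and in 23.7% of all genes tested. The filter raised the share of 15 in 18 too. No call held when every library was left out in turn. A single Hox gene passed when CRC culture 1 or EpiC culture 1 was dropped, and 0 passed when CRC culture 2 or EpiC culture 2 was dropped. All 11 differences kept their sign in every such fit in which the gene was still tested. A fit that loses a library keeps only the other 2 genotypes as pairs.

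In the Hoxa cluster the fallen genes were of groups 2 to 5. Hoxa2, which patterns the second pharyngeal arch, had 0.189, 0.0526 and 0.193 FPKM in CRC cultures 1, 2 and 3, against 2.87, 1.39 and 1.79 FPKM in EpiC cultures 1, 2 and 3 (log2 difference -1.37, SE 0.26, limma adjusted p = 0.031). Hoxa3, needed for thymus and parathyroid, had 0.0802, 0.0355 and 0.131 FPKM in the CRC cultures, against 3.04, 3.05 and 4.36 FPKM in the EpiC cultures (log2 difference -2.04, SE 0.23, limma adjusted p = 0.0125). This was the smallest adjusted p of any Hox gene between the cultures, and the groups were far apart. Hoxa4 had 0.112, 0.0621 and 0 FPKM in the CRC cultures, against 1.23, 1.44 and 3.93 FPKM in the EpiC cultures (log2 difference -1.50, SE 0.36, limma adjusted p = 0.0487). Hoxa5, needed for the developing airway, had 0.557, 0.124 and 0.121 FPKM in the CRC cultures, against 2.11, 7.86 and 4.44 FPKM in the EpiC cultures (log2 difference -2.09, SE 0.44, limma adjusted p = 0.0383). These 4 are among the 15 genes without overlap between the media.

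Hoxa10, known for its role in the uterus, was listed at 0 in all 3 CRC cultures and in EpiC culture 1, and had 3.62 and 3.55 FPKM in EpiC cultures 2 and 3. Hoxa9, its neighbour, had 0.0923, 0.0292 and 0 FPKM in the CRC cultures, against 0.0135, 1.53 and 1.48 FPKM in the EpiC cultures. Both genes were thus higher in the EpiC cultures with conditional Brca1 alleles and near 0 in the EpiC culture of the CYP19A1 genotype, with 1 library of each.

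In the Hoxb cluster the groups split by position. Hoxb2, a hindbrain gene, had 5.86, 5.15 and 3.54 FPKM in CRC cultures 1, 2 and 3, against 6.82, 5.97 and 7.12 FPKM in the EpiC cultures, and did not pass (log2 difference -0.40, SE 0.22, limma adjusted p = 0.224). Hoxb3 had 1.05, 1.61 and 1.75 FPKM in the CRC cultures, against 2.54, 2.52 and 3.67 FPKM in the EpiC cultures, without overlap, and did not pass (log2 difference -0.66, SE 0.21, limma adjusted p = 0.0861). Hoxb4, known for expanding blood stem cells, had 3.05, 3.08 and 3.16 FPKM in the CRC cultures, against 2.87, 1.98 and 2.70 FPKM in the EpiC cultures (log2 difference 0.23, SE 0.20, limma adjusted p = 0.42). Beside these neighbours the next genes of the cluster were close to 0 in the CRC cultures. Hoxb5 had 0.022, 0 and 0 FPKM there, against 0.651, 1.78 and 2.28 FPKM in the EpiC cultures, and did not reach the filter.

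Hoxb6 had 0.0659, 0.11 and 0 FPKM in CRC cultures 1, 2 and 3, against 3.02, 3.80 and 7.15 FPKM in the EpiC cultures (log2 difference -2.35, SE 0.31, limma adjusted p = 0.0163). Hoxb7, often studied in breast cancer, had 0.518, 0.0768 and 0 FPKM in the CRC cultures, against 6.86, 4.72 and 19.9 FPKM in the EpiC cultures (log2 difference -3.06, SE 0.48, limma adjusted p = 0.0224). Hoxb8, whose promoter is printed above, had 0.123, 0 and 0 FPKM in the CRC cultures, against 7.96, 3.59 and 11.3 FPKM in the EpiC cultures (log2 difference -2.94, SE 0.34, limma adjusted p = 0.0127). At the tail side Hoxb9, a member of the mammary paralogue group, was lower but still present in the CRC cultures. It had 2.71, 1.13 and 2.91 FPKM there, against 14.3, 7.50 and 37.7 FPKM in the EpiC cultures (log2 difference -2.45, SE 0.33, limma adjusted p = 0.0163). These 4 too are among the 15 without overlap, and EpiC culture 3 was highest in each of them.

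In Hoxc4, Hoxc5 and Hoxc6, CRC culture 1 stood above the other 2 CRC cultures. Hoxc4 had 3.69, 0.14 and 0 FPKM in CRC cultures 1, 2 and 3, against 4.83, 6.10 and 11.7 FPKM in the EpiC cultures, and did not pass (log2 difference -2.20, SE 0.69, limma adjusted p = 0.0824). Without CRC culture 1 it passed (log2 difference -3.15, SE 0.37, limma adjusted p = 0.0495), and with each of the 6 libraries left out its adjusted p ranged from 0.0472 to 0.273. Hoxc6, a patterning gene of forelimb and upper trunk levels, had 2.0, 0.237 and 0.145 FPKM in the CRC cultures, against 19.5, 5.99 and 18.6 FPKM in the EpiC cultures. This was the largest fall among the Hox genes tested (log2 difference -3.12, SE 0.37, limma adjusted p = 0.0135). Hoxc8, a thoracic patterning gene, had 0, 0.0192 and 0 FPKM in the CRC cultures, against 4.66, 2.28 and 6.58 FPKM in the EpiC cultures (log2 difference -2.37, SE 0.33, limma adjusted p = 0.0173). Hoxc9 was listed at 0 in all 3 CRC cultures and had 1.48, 0.9 and 4.57 FPKM in the EpiC cultures, and narrowly did not pass (limma adjusted p = 0.0532). Hoxc5 had 0.401, 0.0494 and 0.0405 FPKM in the CRC cultures and 1.26, 1.16 and 2.62 FPKM in the EpiC cultures.

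Of the Hoxd genes only Hoxd8 passed the filter. It had 0.127, 0.084 and 0.206 FPKM in CRC cultures 1, 2 and 3, against 7.93, 2.83 and 3.29 FPKM in the EpiC cultures (log2 difference -2.21, SE 0.33, limma adjusted p = 0.0205). Hoxd9 had 0.0197, 0.0437 and 0.161 FPKM in the CRC cultures, against 2.11, 0.818 and 1.08 FPKM in the EpiC cultures. For both genes EpiC culture 1 was the highest, unlike the Hoxb genes that fell. Hoxd1, Hoxd3, Hoxd4 and Hoxd10 to Hoxd13 stayed under 0.1 FPKM in all 6 cultures.

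**Figure D3:**
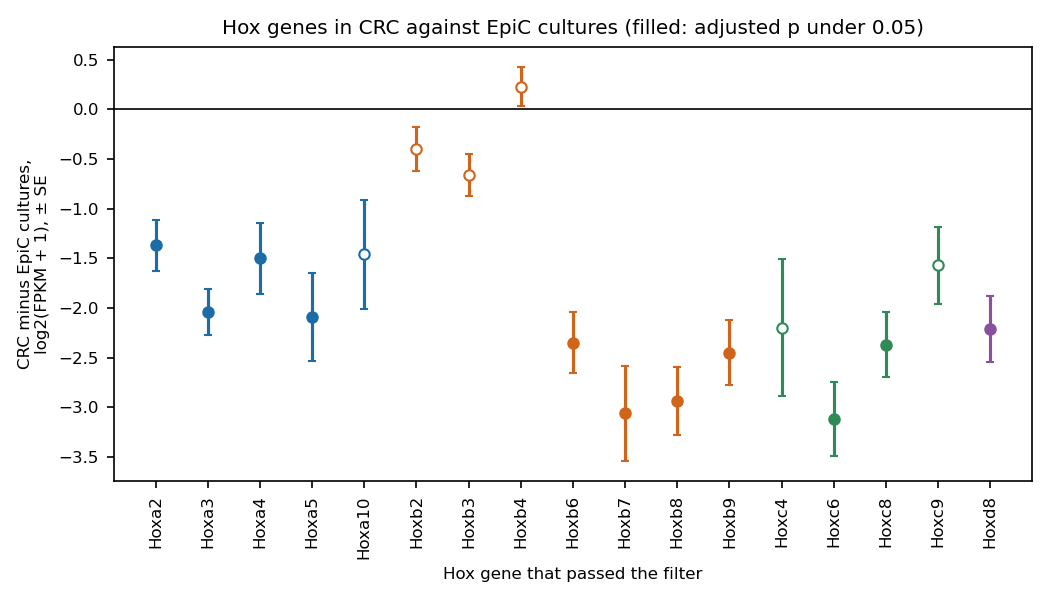
Difference between CRC and EpiC cultures (CRC minus EpiC, log2(FPKM + 1), bars ± SE) of 17 of the 18 Hox genes that passed the filter, coloured by cluster; filled points passed the test. The 11 filled points lie between -1.37 and -3.12, and the open points of Hoxb2, Hoxb3 and Hoxb4 lie nearest to 0.

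Fibroblast genes moved with the Hox genes between the media. Of 9 fibroblast markers tested, 8 fell in CRC cultures, and the whole list summed to 37.3 to 65 FPKM in CRC cultures and 4053 to 6455 FPKM in EpiC cultures; none of the 10 was listed at 0 in every CRC culture, and Fap, Lum and Pdgfrb stayed under 1 FPKM there. Of 12 mesenchymal and limb transcription factor genes tested, 8 fell and 1 rose: Prrx1, a limb mesenchyme homeobox gene, had the smallest adjusted p among those that fell (log2 difference -5.37, SE 0.19, limma adjusted p = 0.00171), and Pitx1, a hindlimb homeobox gene, rose (log2 difference 2.84, SE 0.36, limma adjusted p = 0.0146). The part of these cells in the Hox difference was not tested. In EpiC cultures 1, 2 and 3 the Hox genes summed to 98.7, 73.2 and 166 FPKM. The fibroblast markers summed to 4616, 4053 and 6455 FPKM there, and the epithelial markers to 2514, 2433 and 16 FPKM.

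Partners of Hox proteins and enzymes that set their chromatin were also compared between the media. Of 8 cofactor genes tested, which encode the Pbx, Meis and Pknox proteins that bind DNA with Hox proteins, 2 fell and none rose. Pknox2 had a mean of 0.117 FPKM in CRC cultures and 6.43 FPKM in EpiC cultures, and Meis3 had a mean of 0.337 FPKM in CRC cultures and 3.07 FPKM in EpiC cultures (log2 difference -1.61, SE 0.22, limma adjusted p = 0.0172). Of 21 Polycomb genes, 2 rose and 2 fell, shares near those over all genes (11.4% that rose and 11.7% that fell). Eed, a core subunit of the H3K27 methyltransferase complex, averaged 23.0 FPKM in CRC cultures and 12.9 FPKM in EpiC cultures (log2 difference 0.79, SE 0.16, limma adjusted p = 0.0352), and Pcgf2 (also known as Mel18) averaged 7.55 FPKM in CRC cultures and 17.1 FPKM in EpiC cultures (log2 difference -1.08, SE 0.15, limma adjusted p = 0.0181). None of 10 Trithorax genes and none of 6 tested genes that flank the clusters passed in either direction.

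Retinoic acid induces head-end Hox genes in embryos, and of 14 tested genes of retinoid handling and other Hox regulators 2 rose and 4 fell. Over all genes 11.4% rose and 11.7% fell, so the share that rose was near that over all genes. Aldh1a3, which makes retinoic acid, averaged 6.11 FPKM in CRC cultures and 0.165 FPKM in EpiC cultures (log2 difference 2.56, SE 0.29, limma adjusted p = 0.0125). Rara, a retinoic acid receptor, averaged 4.28 FPKM in CRC cultures and 16 FPKM in EpiC cultures (log2 difference -1.65, SE 0.23, limma adjusted p = 0.0182). The 4 non-coding genes of the clusters that the table listed, Hotair, Hottip, Hoxa11os and Hoxd3os1, stayed under 0.1 FPKM in all 6 cultures, and none could be tested.

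Between allografts of the 2 media no Hox gene passed. Of the 39 genes, 9 passed the filter, and 0 rose or fell in CRC against EpiC allografts (limma), against 0.00833% of 11999 genes tested in either direction, that is 1 gene. By unadjusted p under 0.05, 1 of the 9 Hox genes and 8.43% of all genes differed. The differences of 8 of the 9 Hox genes lay between -0.84 (Hoxb7, SE 0.53) and 0.32 (Hoxd8, SE 0.42). With SEs of this size, absence of a call does not show that the allografts of the media were alike.

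Allografts were next set against the cultures of the same medium. Of the 39 genes, 13 passed the filter over the 16 libraries. In CRC allografts 3 of the 13 Hox genes rose and none fell against CRC cultures. Beside them, 21.2% of 12325 genes tested rose and 18.4% fell, so the share of Hox genes that rose was near that over all genes. In EpiC allografts 5 Hox genes fell and none rose against EpiC cultures, beside 7.94% of genes that rose and 6.26% that fell. Of these 5, Hoxa5, Hoxc4, Hoxc6 and Hoxc8 passed the filter through the EpiC cultures alone, with a mean under 1 FPKM over the other 13 libraries, so the filter favoured a fall. With no filter 10 of 36 Hox genes fell, against 4.07% of 19617 genes. The allograft effect itself differed between the media for 8 Hox genes, all more positive in CRC, against 6.35% of genes with a more positive and 5.87% with a more negative difference. The same 4 genes and Hoxb6 were among the 8, so the filter favoured this direction too. With no filter the difference was more positive in CRC for 12 of 36 Hox genes, without Hoxb9, against 3.99% of all genes. The CRC and the EpiC comparison have no library in common, but both came from 1 fit over the 16 libraries. They share its estimate of the spread and its genotype terms. The EpiC comparison and the difference of the effects also reuse the EpiC cultures of the comparison between media.

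The genes that rose in CRC allografts were Hoxb7, Hoxb8 and Hoxd8. Hoxb7 had 1.27, 2.29 and 14.9 FPKM as lowest, median and highest of the 7 CRC allografts, against 0.518, 0.0768 and 0 FPKM in CRC cultures 1, 2 and 3 (log2 difference 2.20, SE 0.53, limma adjusted p = 0.00447). Hoxb8 had 0.381, 0.676 and 5.03 FPKM as lowest, median and highest of the CRC allografts, against 0.123, 0 and 0 FPKM in the CRC cultures (log2 difference 1.18, SE 0.41, limma adjusted p = 0.0343). Hoxd8 had 0.609, 1.89 and 3.99 FPKM as lowest, median and highest of the CRC allografts, against 0.127, 0.084 and 0.206 FPKM in the CRC cultures (log2 difference 1.41, SE 0.37, limma adjusted p = 0.00763). In all 3 genes every CRC allograft lay above every CRC culture, as in 5 of the 13 Hox genes and 21.8% of all genes tested. Hoxb7 lost its call without CRC culture 3, and Hoxb8 without any of 6 single libraries, while Hoxd8 held. The calls did not hold in Brca1 fl11/WT libraries alone, where all 3 differences stayed positive. That subset has 1 CRC culture, so the loss does not show that the increase is absent in this genotype.

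Of the 5 genes that fell in EpiC allografts, 3 were Hoxc genes. Hoxc6 had 0.262, 0.468 and 0.242 FPKM in EpiC allografts 7B, 4C and 5A, against 19.5, 5.99 and 18.6 FPKM in EpiC cultures 1, 2 and 3 (log2 difference -3.35, SE 0.42, limma adjusted p = 0.000117). Hoxc4 had 0.0255, 0.102 and 0.173 FPKM in the EpiC allografts, against 4.83, 6.10 and 11.7 FPKM in the EpiC cultures (log2 difference -2.85, SE 0.47, limma adjusted p = 0.00117). Hoxc8 had 0.137, 1.17 and 0.583 FPKM in the EpiC allografts, against 4.66, 2.28 and 6.58 FPKM in the EpiC cultures (log2 difference -1.64, SE 0.37, limma adjusted p = 0.0103). Hoxb9 had 0.693, 0.725 and 0.304 FPKM in the EpiC allografts, against 14.3, 7.50 and 37.7 FPKM in the EpiC cultures (log2 difference -2.81, SE 0.59, limma adjusted p = 0.00594). Hoxa5 had 0.272, 1.14 and 0.251 FPKM in the EpiC allografts, against 2.11, 7.86 and 4.44 FPKM in the EpiC cultures (log2 difference -1.92, SE 0.34, limma adjusted p = 0.00183). In all 5 genes every EpiC allograft lay below every EpiC culture, as in 8 of the 13 Hox genes and 12.6% of all genes tested. Of these 8, Hoxa5, Hoxb6, Hoxc4, Hoxc6 and Hoxc8 passed the filter through the EpiC cultures alone. The share of 8 in 13 is therefore raised by the filter. Except for Hoxc8, which was lost without EpiC allograft 7B, the calls of the 5 genes that fell held with each library left out.

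EpiC allograft 7B stood apart from the other 2 EpiC allografts in the Hoxb cluster, which summed to 47.4 FPKM in 7B and to 6.71 and 3.97 FPKM in 4C and 5A. Of its Hoxb genes, 6 reached 1 FPKM. Hoxb4 had 4.75, 0.521 and 0.309 FPKM in EpiC allografts 7B, 4C and 5A, and Hoxb8 had 4.69, 1.54 and 0.345 FPKM there, whereas Hoxb9 stayed under 1 FPKM in all 3. Hoxb7 had 24.8, 1.82 and 1.28 FPKM in EpiC allografts 7B, 4C and 5A, against 6.86, 4.72 and 19.9 FPKM in the EpiC cultures (log2 difference -0.19, SE 0.63, limma adjusted p = 0.881). EpiC allograft 7B was of the CYP19A1 genotype and also had the most Hoxc9 of any EpiC allograft, 3.97 FPKM, against 0.333 and 0.665 FPKM in 4C and 5A. The Hoxa genes of groups 2, 3, 4 and 7 stayed under 1.2 FPKM in all 10 allografts, of both media.

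**Figure D4:**
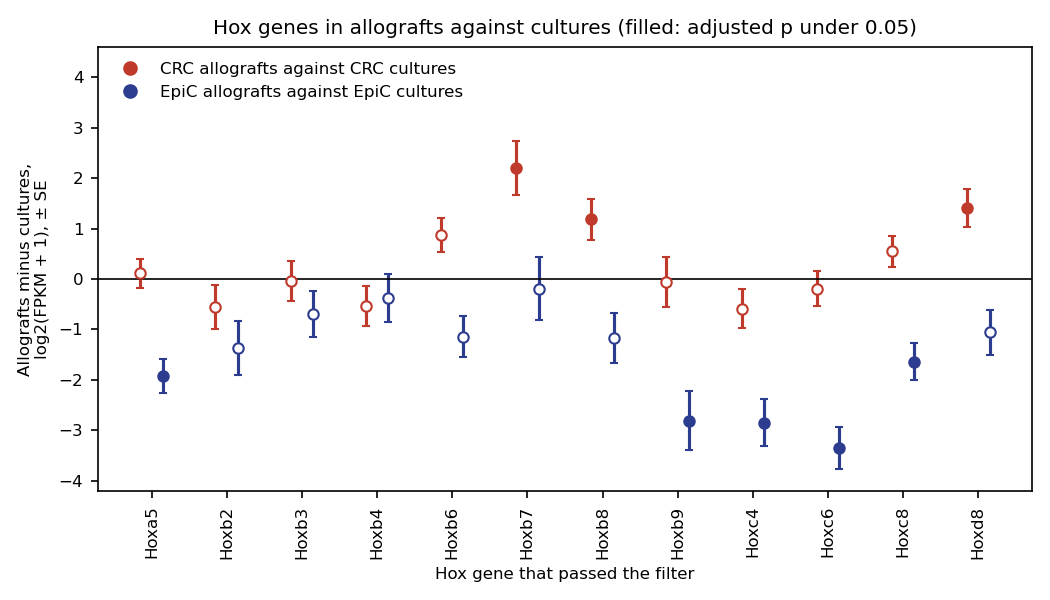
Allografts minus cultures (log2(FPKM + 1), bars ± SE) of 12 of the 13 Hox genes that passed the filter, for CRC (red) and EpiC (blue); filled points passed the test. The red filled points (Hoxb7, Hoxb8 and Hoxd8) lie at 1.18 to 2.20 and the blue filled points (Hoxa5, Hoxb9, Hoxc4, Hoxc6 and Hoxc8) at -1.64 to -3.35.

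Where the allograft effect differed between the media, Hoxc6 had the largest difference, 3.17 (SE 0.55, limma adjusted p = 0.00198), made of a change of -0.19 in CRC and -3.35 in EpiC. Hoxd8 differed by 2.47 (SE 0.57, limma adjusted p = 0.0125), made of 1.41 in CRC and -1.06 in EpiC. Hoxa5, Hoxb6, Hoxb8, Hoxb9, Hoxc4 and Hoxc8 also passed, by 2.02 to 2.75. Hoxb7 differed by 2.39 but did not pass (SE 0.82, limma adjusted p = 0.0753). The calls of Hoxa5 and Hoxc6 held with each library left out, and 4, 3 and 4 genes passed with EpiC culture 1, 2 or 3 dropped and 3 with CRC culture 3 dropped. Fibroblast markers differed in the same way, 8 of 10 with a more positive effect in CRC. They were high in allografts of both media. The part of fibroblasts or of host macrophages in the Hox values was not tested.

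Between CRC allografts with 2 and with 1 conditional Brca1 allele no Hox gene passed. All 3 Brca1 fl11/fl11 allografts lay above all 3 Brca1 fl11/WT allografts in 5 of the 9 Hox genes tested, Hoxb3 and Hoxb6 to Hoxb9, and in 9.43% of all genes tested; no Hox gene, and 9.93% of all genes, had all 3 below. Of the 39 genes 9 passed the filter and 0 rose or fell (limma), against 0% of 11928 genes tested. By unadjusted p under 0.05, 4 of the 9 Hox genes and 10.4% of all genes differed. Hoxb6, Hoxb8 and Hoxb9 averaged 0.344, 0.573 and 0.267 FPKM in the Brca1 fl11/WT allografts. They passed the filter through the Brca1 fl11/fl11 allografts alone. The filter thus favoured higher values in that genotype and raised the shares of 5 in 9 and 4 in 9. With no filter 0 of 30 Hox genes passed. Hoxb7 had 14.9, 7.40 and 11.7 FPKM in Brca1 fl11/fl11 allografts 1, 2 and 12, against 1.27, 1.46 and 2.29 FPKM in Brca1 fl11/WT allografts 10B, 10C and 11C (log2 difference 2.18, SE 0.29, unadjusted p = 0.000131, limma adjusted p = 0.198). Hoxb9 had 1.25, 6.40 and 16.2 FPKM in the Brca1 fl11/fl11 allografts, against 0.216, 0.296 and 0.288 FPKM in the Brca1 fl11/WT allografts (log2 difference 2.38, SE 0.66, limma adjusted p = 0.345). Hoxb8 had 4.38, 0.85 and 5.03 FPKM in the Brca1 fl11/fl11 allografts, against 0.381, 0.662 and 0.676 FPKM in the Brca1 fl11/WT allografts (log2 difference 1.32, SE 0.45, limma adjusted p = 0.407). Hoxb6 had 3.56, 1.56 and 1.70 FPKM in the Brca1 fl11/fl11 allografts, against 0.216, 0.431 and 0.384 FPKM in the Brca1 fl11/WT allografts (log2 difference 1.24, SE 0.29, limma adjusted p = 0.301). Without CRC allograft 1, whose Hoxb9 was the lowest of its genotype, Hoxb9 passed (log2 difference 3.15, SE 0.36, limma adjusted p = 0.0389), and with each of the 6 libraries left out its adjusted p ranged from 0.0389 to 0.842.

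Hoxd8 did not share this. It had 0.609, 1.12 and 2.65 FPKM in Brca1 fl11/fl11 allografts 1, 2 and 12, against 1.87, 2.18 and 1.89 FPKM in Brca1 fl11/WT allografts 10B, 10C and 11C (log2 difference -0.36, SE 0.32, limma adjusted p = 0.697). Over all 16 libraries, with group in the model, the Brca1 fl11/fl11 against fl11/WT difference was 1.01 to 1.94 for Hoxb6, Hoxb7, Hoxb8 and Hoxb9, with limma adjusted p from 0.615 to 0.736. This fit reuses the CRC allografts in which these genes were picked out, so it is not a separate comparison. Of 12325 genes tested 0.00811% passed there in either direction, that is 1 gene, and no Hox gene. The epithelial marker sum was 632, 312 and 299 FPKM in Brca1 fl11/fl11 CRC allografts 1, 2 and 12, against 313, 511 and 391.6 FPKM in Brca1 fl11/WT allografts 10B, 10C and 11C. The fibroblast marker sum was 1728, 2292 and 3902 FPKM in the Brca1 fl11/fl11 allografts, against 4900, 5377 and 3310 FPKM in the Brca1 fl11/WT allografts, and the groups overlapped in both sums. The macrophage marker sum was 5991, 7975 and 7745 FPKM in the Brca1 fl11/fl11 allografts, against 3647, 4366 and 3627 FPKM in the Brca1 fl11/WT allografts, without overlap. The part of these cells in the Hoxb values was not tested.

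The 2 CYP19A1 allografts differed from each other in several Hox genes. Hoxb7 had 2.23 and 24.8 FPKM in CYP19A1 allografts 6C (CRC) and 7B (EpiC), against 1.27 to 2.29 FPKM in the 5 Brca1 fl11/WT allografts. Hoxd8 ran the other way in these allografts, with 3.99 FPKM in 6C and 0.75 FPKM in 7B, against 1.42 to 3.71 FPKM in the Brca1 fl11/WT allografts. Over the 16 libraries none of the 13 Hox genes tested passed for CYP19A1 against Brca1 fl11/WT (limma), against 0.00811% of 12325 genes in either direction. By unadjusted p under 0.05, 1 Hox gene differed, Hoxb7 (log2 difference 1.30, SE 0.48, limma adjusted p = 0.731), beside 6.56% of all genes.

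**Figure D5:**
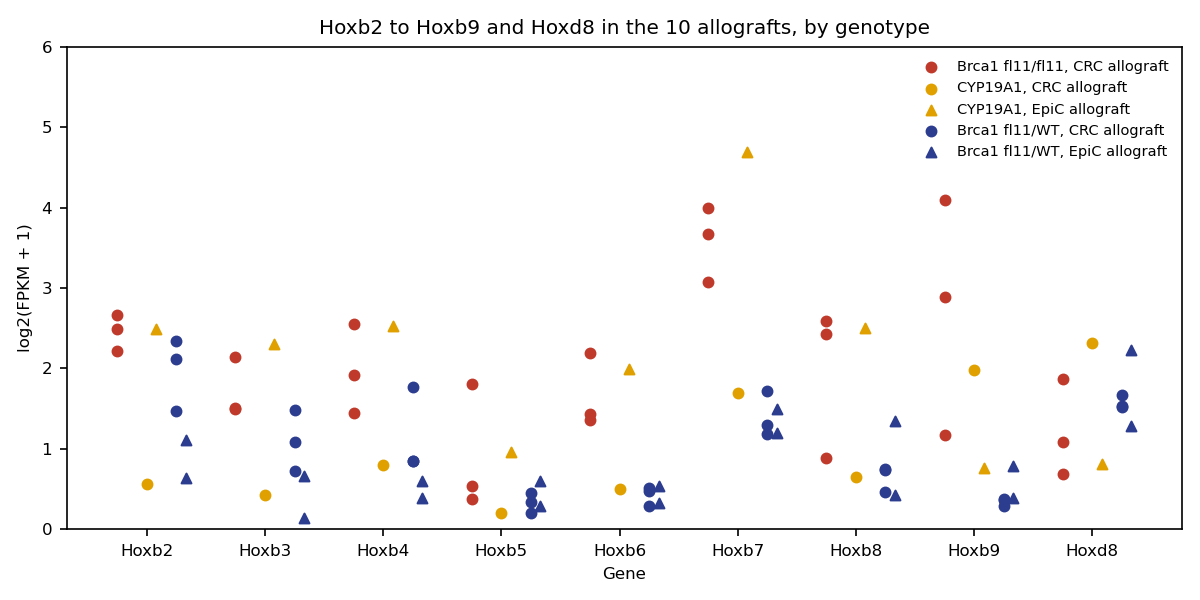
Levels of Hoxb2 to Hoxb9 and Hoxd8 in the 10 allografts as log2(FPKM + 1), by genotype (colour) and medium (circles CRC, triangles EpiC), 1 point per library. Hoxb7 is highest in EpiC allograft 7B (CYP19A1, 24.8 FPKM) and the 3 Brca1 fl11/fl11 allografts (7.40 to 14.9 FPKM), and Hoxd8 shows no such order.

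In the smaller table, normalised apart from the larger, Hox genes were low throughout. Only 3 of the 39 reached 1 FPKM, all in primary cancer 1: Hoxa3 with 2.13 FPKM, Hoxa2 with 1.91 FPKM and Hoxd8 with 1.15 FPKM. Hoxa2 and Hoxa3 had 0.0921 and 0.0773 FPKM in the CRC culture and 0.0626 and 0.021 FPKM in the EpiC culture of that cancer, and 0.0446 and 0.24 FPKM in primary cancer 2. The sum over the 39 genes was 1.26 and 3.11 FPKM in the CRC cultures of cancers 1 and 2, 1.5 and 0.556 FPKM in their EpiC cultures, and 10.9 and 5.22 FPKM in the primary cancers. Both kinds of culture thus lay below both cancers.

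Hoxb7, Hoxb8 and Hoxb6 were listed at 0 in all 4 cultures of cancers, whereas in primary cancers 1 and 2 Hoxb7 had 0.636 and 0.263 FPKM. Hoxd8 had 0.123 and 0.216 FPKM in the CRC cultures, was listed at 0 in both EpiC cultures and had 1.15 and 0.499 FPKM in the primary cancers. No Hox gene reached a mean of 1 FPKM over these 6 libraries, so none was tested with the filter. With no filter, Hoxc8 passed in both comparisons: it had 0 and 0 FPKM in the CRC cultures and 0 and 0.0236 FPKM in the EpiC cultures, against 0.335 and 0.307 FPKM in the primary cancers. The log2 difference was -0.40 for CRC cultures (SE 0.04, limma adjusted p = 0.0261) and -0.38 for EpiC cultures (SE 0.04, limma adjusted p = 0.0293), beside 1.51% of 18824 genes that passed in each comparison. The comparisons share the primary cancers, neither call held with the cancer number as a block (limma adjusted p = 0.0967 for CRC and 0.0994 for EpiC, chosen after seeing the data), and a change between values this low rests on few fragments.

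Fibroblast markers summed to 7.67 to 24.4 FPKM in CRC cultures of cancers, 5.85 to 6.60 FPKM in EpiC cultures of cancers and 171 to 384 FPKM in the primary cancers. Epithelial markers summed to 2481 to 12100 FPKM in CRC cultures of cancers, 3009 to 3021 FPKM in EpiC cultures of cancers and 2327 to 5528 FPKM in the primary cancers. The EpiC cultures of cancers carried epithelial and few fibroblast transcripts and had low Hox sums. In the larger table every EpiC culture was high in fibroblast markers. EpiC cultures 1 and 2 there also carried epithelial markers, 2514 and 2433 FPKM in sum. Levels in that table cannot be tested against those of the cultures of cancers. Macrophage markers summed to 10.3 to 13.4 FPKM in CRC cultures of cancers, 14.4 to 37 FPKM in EpiC cultures of cancers and 923 to 1370 FPKM in the primary cancers. The 4 Schwann cell and melanocyte markers set primary cancer 1 apart, as Hoxa2 and Hoxa3 did: they summed to 185 FPKM there and 2.36 FPKM in primary cancer 2, and to 23.7 and 1.63 FPKM in the CRC and the EpiC culture of cancer 1. The part of these cell types in the Hox values was not tested.

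Some values may hold reads of neighbours. In a later annotation (GENCODE M21) 4 members share exons with another member, Hoxc5 with Hoxc10 and Hoxd3 with Hoxd4. The same annotation has 10 members whose exons overlap an antisense gene, among them Hoxa3, Hoxa4, Hoxa7, Hoxa11, Hoxb2, Hoxb3, Hoxb5, Hoxd3 and Hoxd4, and without a stated strand setting their reads cannot be told apart. Of the genes that fell in CRC cultures, Hoxa3 and Hoxa4 are among these, and none of the Hoxb, Hoxc or Hoxd genes that fell is.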

How the data were processed

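Poly(A) RNA was sequenced as paired-end reads in 22 mouse libraries. The authors deposited FPKM values, per the labels, in a table of 16 libraries and a separate table of 6, so tests were made within a table only. Reads were handled with FastQC, Trim Galore, TopHat, Cufflinks and build mm9, per the submitters' processing notes; no versions or annotation were stated there. Entries that shared a symbol (407 in the smaller set) were summed. Groups were taken from the titles.

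The members and gene lists were chosen with earlier results of these data known. Differences were tested with limma 3.58.1 (R 4.3.3; lmFit, eBayes with trend) on log2(FPKM + 1), which understates changes of low genes, keeping genes whose average over the fitted libraries reached 1 FPKM. Genes passed at a Benjamini-Hochberg adjusted p under 0.05 over all genes tested. Genotype was in the model of cultures and of allografts, group and genotype in that of all 16 libraries, and group alone in the smaller table. The test was checked on simulated data. Values by library were given for Hox genes that passed between the media or had a group median of at least 10 FPKM, other Hox genes by range or, where they are neighbours, by library, and list genes by the smallest adjusted p in each direction and the highest mean.

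Depth cannot be read from FPKM; steps between low values gave a rough relative worth of a fragment, 0.986 to 4.41 when CRC allograft 10C is set to 1, coarsest in CRC culture 3. No 2 of 135 pairs of libraries were identical. In the smaller table the numbers pair libraries, because titles name the same cancer; same-numbered deviations correlated across genes at -0.0555, -0.113 and 0.242. Alternatives were a pseudocount of 0.1, no filter or a filter at 5 FPKM, median-ratio rescaling, other models, the block and leaving out each library. Promoters came from RefSeq (GRCm38.p6). Some genes are not reported here, although counts include them.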

Additional observations from a re-analysis of the deposited data

Results flagged for a closer look

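In the 7 CRC allografts, 13 Hox genes that reached 1 FPKM were searched for a library far from the others by Dixon's criterion, and 4 were found. The search used FPKM, not the log2(FPKM + 1) scale of the tests, over libraries of different genotypes. The usual rate of about 1 in 20 groups by chance needs normal values of 1 population, so it does not hold here. In addition, 3 of the 4 genes (Hoxb5, Hoxc8 and Hoxd9) reached 1 FPKM in the library that stood apart alone. Hoxb5 stood at 2.48 FPKM in CRC allograft 1, Hoxb9 at 16.2 FPKM and Hoxc8 at 1.69 FPKM in CRC allograft 12, and Hoxd9 at 1.29 FPKM in CRC allograft 6C. CRC allografts 1 and 12 are Brca1 fl11/fl11 and 6C is CYP19A1.

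The effect of growth as an allograft differed between CRC and EpiC for 8 Hox genes by the interaction test described above. Beside them, 6.35% of 12325 genes tested had a more positive difference. Hoxa5, Hoxb6, Hoxc4, Hoxc6 and Hoxc8 passed the filter through the EpiC cultures alone, so the filter favoured this direction. Only the calls of Hoxa5 and Hoxc6 held with each library left out. The difference (CRC minus EpiC, log2(FPKM + 1), limma) was 2.03 for Hoxa5, 2.02 for Hoxb6, 2.35 for Hoxb8, 2.75 for Hoxb9, 2.25 for Hoxc4, 3.17 for Hoxc6, 2.19 for Hoxc8 and 2.47 for Hoxd8. In Hoxa5, Hoxb9, Hoxc4, Hoxc6 and Hoxc8 the fall in EpiC allografts passed by itself, and in Hoxb8 and Hoxd8 the increase in CRC allografts did.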

How the results depend on the processing

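No tested difference of a Hox gene that passed turned its sign under any alternative run, and median-ratio rescaling kept every one of these calls. With each library left out, the count of Hox genes that passed (either direction) ranged from 0 to 9 for CRC against EpiC cultures (11 with all), 1 to 4 for CRC allografts against cultures (3), 4 to 7 for EpiC allografts against cultures (5), 3 to 8 for the difference of these effects (8) and 0 to 1 for Brca1 fl11/fl11 against fl11/WT CRC allografts (0). A filter at 5 FPKM leaves few Hox genes to test and gave 3, 1, 1 and 1 for the first 4. A pseudocount of 0.1 gave 5 for CRC allografts against cultures. No filter gave 8 for CRC against EpiC cultures, 10 for EpiC allografts against cultures, 12 for the difference of the effects, and 1 each for CRC and EpiC cultures of cancers against the cancers. Brca1 fl11/WT libraries alone include 1 culture of each medium, so a count of calls from that fit decides nothing. The cause was not tested where none is given.

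No Hox gene reached the filter in the smaller table, so its counts of 0, with the replicate block (the cancer number) and without, were fixed in advance. With no filter together with the block, an alternative chosen after seeing the data, 0 passed in cultures of either medium against the cancers. In the larger table shared numbers name genotypes, which were in the model. Values under about 1 FPKM rest on few fragments, most of all in CRC culture 3, so a Hox gene listed at 0 there is not shown to be silent.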
